A study of Mus musculus with 4 samples.

Results

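Tubulins are the building blocks of microtubules, and kinesins are the motor proteins that walk along microtubules or take them apart. The genes described here are the 59 tubulin and kinesin genes measured in CD45-negative cells of mouse lung, of 30142 named genes in all. The rule goes by symbol and uses no measured difference: an alpha-, beta-, gamma-, delta- or epsilon-tubulin gene or a numbered kinesin gene, taken from transcript clusters that carry 1 gene symbol. Of these, 18 are tubulin and 41 kinesin genes, pseudogenes included. The study gave bleomycin (BLM) or phosphate-buffered saline (PBS) into the trachea of C57BL/6 mice and measured total RNA of lung cells lacking the leukocyte marker CD45, 10 days later. Bleomycin breaks DNA strands and is the usual agent of experimental lung fibrosis. There were 2 BLM arrays and 2 PBS arrays. Nothing in the labels says whether the arrays of a group stand for separate animals or pools, and neither age nor sex is given, so the p-values reflect the spread among these arrays alone, and that spread may be technical.

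An alpha- and a beta-tubulin pair into the dimer from which microtubules grow. Gamma-tubulin starts new microtubules at centrosomes, and delta- and epsilon-tubulin serve centrioles and basal bodies. Mammals carry several alpha and beta genes, or isotypes, used to different degrees in neurons, platelets, cycling cells and cilia. Kinesins fall into families with separate work: some build and divide the mitotic spindle, some serve the axoneme of motile cilia, the whip-like projections that clear mucus from airways, and others carry vesicles and organelles. In lung, motile cilia belong to the ciliated cells of the airway lining.

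All values are RMA expression values as deposited, taken as log2. Values above 16, such as those of Tuba1c, are unusual on that scale, and fold sizes rest on it. All differences are log2 of BLM minus PBS with the standard error (SE) from a limma fit over 30142 genes, n = 2 arrays per group. A gene rose or fell only where its Benjamini-Hochberg adjusted p over all genes was under 0.05. Levels of different genes come from different probes and are not compared. In bulk RNA, fewer cells of a type and less RNA per cell cannot be told apart.

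Arrays of a group lay close together: for the 59 genes the mean absolute difference was 0.0885 between the BLM arrays and 0.103 between the PBS arrays. The transcripts of CD45 itself (Ptprc) lay at 7.19 and 7.20 on the BLM arrays, against 6.30 and 6.21 on the PBS arrays, and rose (0.94, SE 0.08, adjusted p = 0.00166). Of 5 leukocyte markers 4 rose, with list means of 7.21 and 7.33 on the BLM arrays and of 6.17 and 6.10 on the PBS arrays, although the gate removes leukocytes. Of 7 macrophage markers 4 rose and 2 fell, with list means of 10.16 on both BLM arrays and of 8.92 and 9.0 on the PBS arrays. The rises were uneven: Ctss stood at 5.49, Cd68 at 2.44, Adgre1 at 1.32 and Csf1r at 0.60. Lyz2 (-1.14) and Mertk (-0.32) fell, and Marco, at 0.04, did not pass. The part of leukocytes and macrophages in the values below was not tested. Markers of fibroblasts, endothelium and epithelium had list means of 11.28 or more on every array. Means over different genes are not comparable between lists and give no shares of cells. Xist, the RNA of the inactive X chromosome, lay at 5.60 and 5.43 on the BLM arrays and at 15.86 and 15.61 on the PBS arrays, while Eif2s3y, Kdm5d and Uty, which lie on the Y chromosome, rose (2.63, 2.14 and 2.44). The groups thus appear to differ in sex, and treatment and sex cannot be told apart in any value below.

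Among the 59 genes, 12 rose (20.3%) and 16 fell (27.1%), and 31 did not pass. Of all 30142 genes, 25.3% passed, 15.2% higher and 10.1% lower in BLM. Of 18 tubulin genes 10 rose and 3 fell, with a median difference of 0.35, and of 41 kinesin genes 2 rose and 13 fell, with a median of -0.09, beside a median of 0.05 over all genes. At least 2-fold differences were found in 6 of the 59, against 5.14% of all genes: Tubb2a, Tubb2b, Kif26b and Tubb6 were higher, and Kif21a and Kif9 lower. BLM and PBS values did not overlap in 43 of the 59 genes, where 63.3% of all genes did not. Where results are given without replicates 1 and 2, each array was left out on its own. The number that rose was 8 and 6 without BLM replicates 1 and 2 and 8 and 7 without PBS replicates 1 and 2. The number that fell was 7 and 8 without the BLM arrays and 14 without either PBS array. With cyclic loess scaling 9 rose and 16 fell, when the share of all calls that were higher was 49.6%, against 60.1% as deposited.

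**Figure D1:**
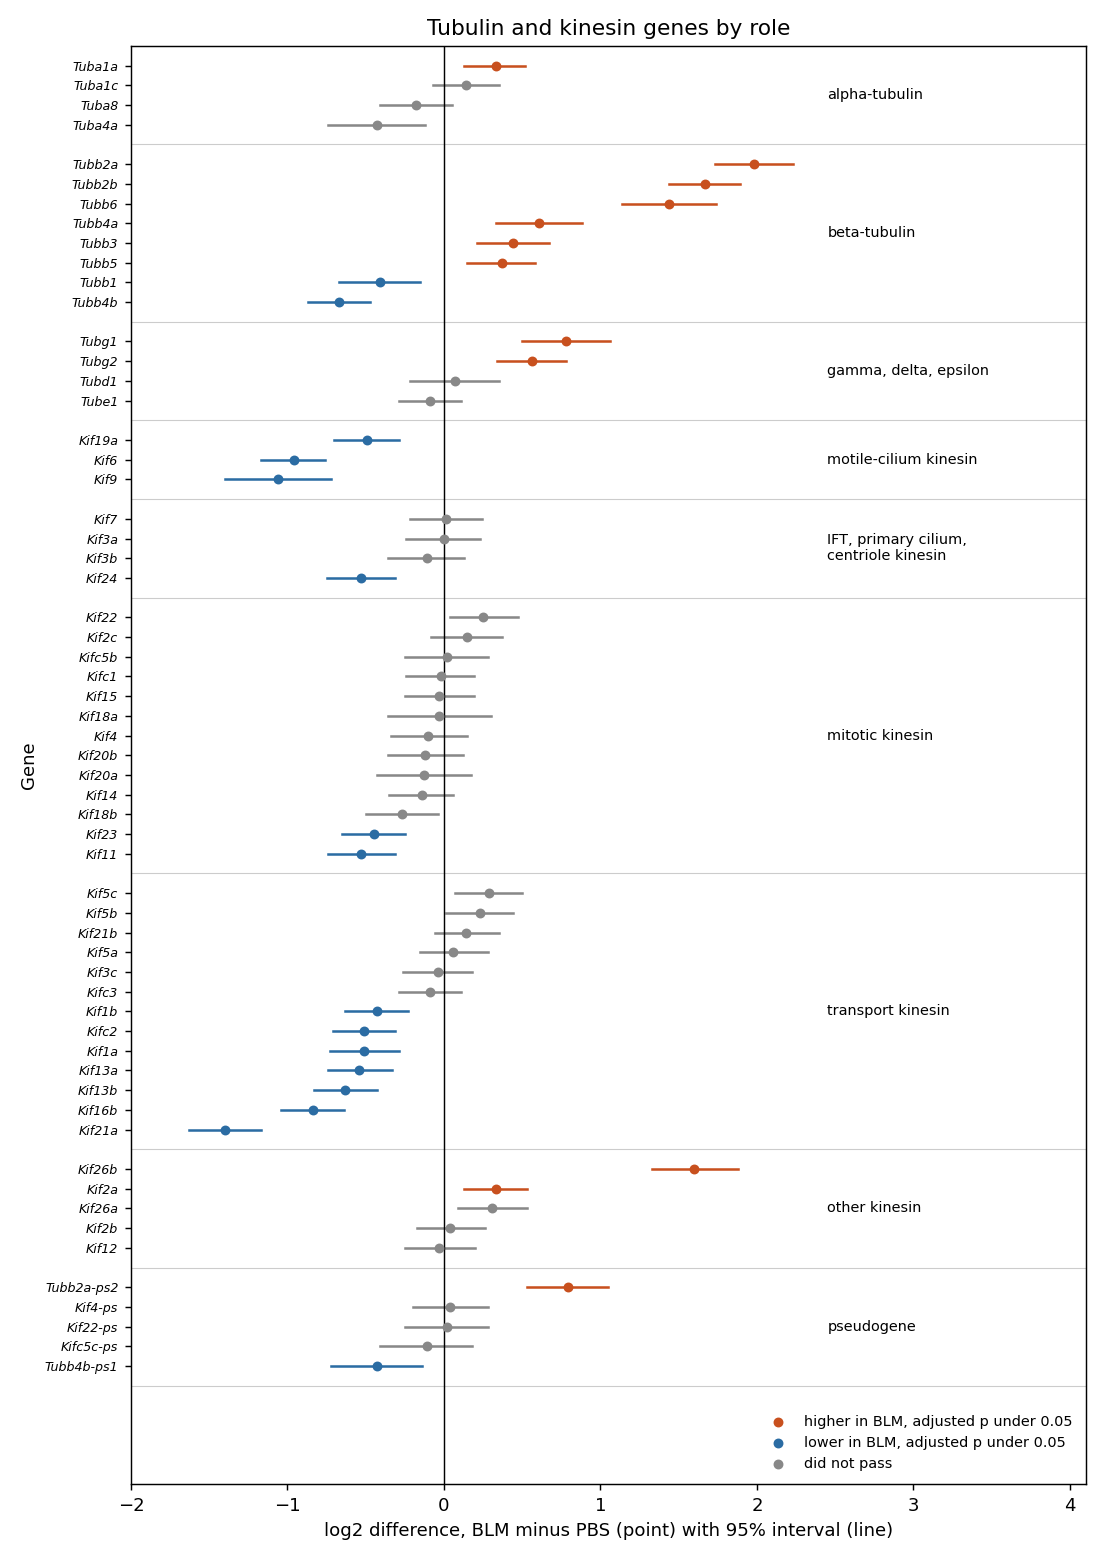
The log2 difference, BLM minus PBS, of each of the 59 genes (point) with its 95% interval (line), grouped by role. Orange genes passed an adjusted p of 0.05 with BLM above PBS, blue genes passed with BLM below PBS, and grey genes did not pass. Tubb2a at 1.98, Tubb2b at 1.67, Kif26b at 1.60 and Tubb6 at 1.44 stand farthest right, and Kif21a stands farthest left at -1.40.

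Promoter sequences are shown for members picked by name, some that rose and some that fell. Kif21a, the deepest fall, is not among them. RefSeq (GRCm38.p6) gave a promoter, 250 bases before to 50 after the gene's start, for 43 of the 59 genes. The first 4 are the promoters of Tubb2a (chr13:34077959-34078258, minus strand) and Kif26b (chr1:178528875-178529174, plus strand), which rose, and of Kif9 (chr9:110476708-110477007, plus strand) and Kif6 (chr17:49614922-49615221, plus strand), which fell. Each is written 5′ to 3′ along the gene's own strand. Capitals mark matches, on either strand, to the GC box GGGCGG, the CCAAT box CCAAT, the cell cycle homology region TTTGAA and the core GTTGCC of the X-box, the element bound by RFX factors of ciliated cells.
Tubb2a: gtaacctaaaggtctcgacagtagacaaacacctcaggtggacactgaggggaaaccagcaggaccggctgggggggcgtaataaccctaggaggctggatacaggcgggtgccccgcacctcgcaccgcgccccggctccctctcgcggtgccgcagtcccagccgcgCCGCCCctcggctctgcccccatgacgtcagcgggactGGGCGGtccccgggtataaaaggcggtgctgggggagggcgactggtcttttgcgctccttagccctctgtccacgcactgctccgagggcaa
Kif26b: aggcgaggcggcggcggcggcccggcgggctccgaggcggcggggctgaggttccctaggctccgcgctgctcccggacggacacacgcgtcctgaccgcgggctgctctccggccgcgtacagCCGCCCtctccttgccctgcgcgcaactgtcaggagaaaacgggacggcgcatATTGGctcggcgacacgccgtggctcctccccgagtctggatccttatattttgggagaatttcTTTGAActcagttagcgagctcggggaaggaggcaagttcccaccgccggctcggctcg
Kif9: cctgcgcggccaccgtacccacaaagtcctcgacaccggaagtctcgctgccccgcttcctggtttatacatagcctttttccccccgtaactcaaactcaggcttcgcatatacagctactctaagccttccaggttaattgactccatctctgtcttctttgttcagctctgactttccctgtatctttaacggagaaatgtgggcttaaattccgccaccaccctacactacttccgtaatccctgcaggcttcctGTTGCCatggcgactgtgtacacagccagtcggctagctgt
Kif6: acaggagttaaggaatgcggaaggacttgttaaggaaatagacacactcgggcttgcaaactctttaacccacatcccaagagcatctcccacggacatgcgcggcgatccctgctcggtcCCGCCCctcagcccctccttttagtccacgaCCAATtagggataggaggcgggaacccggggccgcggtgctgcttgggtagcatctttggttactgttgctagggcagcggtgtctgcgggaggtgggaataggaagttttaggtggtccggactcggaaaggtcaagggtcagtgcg
The Tubb2a promoter held GC boxes at -81 and -43, counted from the start, and none of the other motifs. Kif26b held a GC box, a CCAAT box and a cell cycle homology region, and Kif6 a GC box and a CCAAT box. Kif9 held the X-box core at base 10 after the start, which was found in 12.5% of all 32851 promoters in the table. The GC box was found in 35.7% and the CCAAT box in 37.4% of them. No match of 1 motif overlapped another in these 4 promoters.

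The beta-tubulins changed throughout: all 8 measured genes passed, 6 higher and 2 lower, with a median difference of 0.52, where 25.3% of all genes passed. Tubb2a, a class II beta-tubulin abundant in brain, lay at 14.74 and 14.56 on the BLM arrays, against 12.72 and 12.63 on the PBS arrays. Its BLM values lay far above its PBS values, a rise of 1.98 (SE 0.10, adjusted p = 0.000418), or 3.94-fold. Tubb2b, its close relative on the same chromosome 13 and best known for neuronal migration in the developing cortex, lay at 8.26 and 8.37 on the BLM arrays and at 6.69 and 6.60 on the PBS arrays. It rose by 1.67 (SE 0.09, adjusted p = 0.000499), or 3.17-fold. The coding sequences of Tubb2a and Tubb2b are nearly identical, so how probes divide the signal between them is uncertain. Tubb6, a class V beta-tubulin, lay at 9.85 and 9.60 on the BLM arrays, against 8.36 and 8.21 on the PBS arrays, and rose by 1.44 (SE 0.12, adjusted p = 0.00136), or 2.71-fold. These 3 genes passed in each of the 10 alternative fits in which they were tested, and stood at 1.89 to 2.07, 1.61 to 1.72 and 1.32 to 1.56 without each array in turn.

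Smaller rises were measured for 3 other isotypes. Tubb4a, a class IV beta-tubulin of brain, lay at 6.03 and 6.29 on the BLM arrays and at 5.56 and 5.55 on the PBS arrays, a rise of 0.61 (SE 0.11, adjusted p = 0.0147). Tubb3, the class III beta-tubulin widely used as a neuronal marker, lay at 5.0 and 4.89 on the BLM arrays, against 4.56 and 4.46 on the PBS arrays (0.44, SE 0.09, adjusted p = 0.0217). Averaged over all 4 arrays both are under 6.03, the median gene level, which leaves the sizes uncertain. Of 8 neuron and Schwann cell markers none passed by limma and 1 had an unadjusted p under 0.05, with list means of 5.94 and 5.90 on the BLM arrays and 5.82 and 5.85 on the PBS arrays. Tubb5, the broadly expressed class I isotype, lay at 12.34 and 12.41 on the BLM arrays and at 11.97 and 12.05 on the PBS arrays (0.37, SE 0.08, adjusted p = 0.0307). The call of Tubb5 ended with any single array left out (adjusted p = 0.11 and 0.155 without BLM replicates 1 and 2, 0.102 and 0.0599 without PBS replicates 1 and 2) and with cyclic loess, at 0.18 (adjusted p = 0.184). Tubb4a lost it without BLM replicate 2 and without PBS replicates 1 and 2 (adjusted p = 0.0641, 0.0546 and 0.0538), and Tubb3 without BLM replicates 1 and 2 and PBS replicate 2 (0.126, 0.0691 and 0.0772).

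Tubb4b and Tubb1 were the beta-tubulins that fell. Tubb4b, a class IV isotype built into the axonemes of motile cilia, lay at 9.09 and 9.14 on the BLM arrays and at 9.80 and 9.77 on the PBS arrays. It fell by 0.67 (SE 0.08, adjusted p = 0.00395) and passed in each of the 10 alternative fits, with 7 ciliated cell markers at list means of 7.58 and 7.69 on the BLM arrays and 8.90 and 9.02 on the PBS arrays; their part in the result was not tested. Tubb1, the isotype of platelets and megakaryocytes, lay at 6.67 and 6.56 on the BLM arrays, against 7.11 and 6.93 on the PBS arrays. It stood at -0.41 (SE 0.10, adjusted p = 0.0398), and the call ended without BLM replicate 1, BLM replicate 2 or PBS replicate 1 (adjusted p = 0.104, 0.176 and 0.123). Of 7 platelet markers 2 fell, Ppbp at -0.96 and Itga2b at -0.68 (28.6% called, against 25.3% of all genes). Pf4 at 0.03, Gp9 at 0.14, Gp6 at -0.07, Gp5 at -0.26 and Treml1 at -0.27 did not pass. The list means of the 7 were 6.47 and 6.36 on the BLM arrays and 6.65 and 6.77 on the PBS arrays. The part of these markers in the Tubb1 value was not tested.

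**Figure D2:**
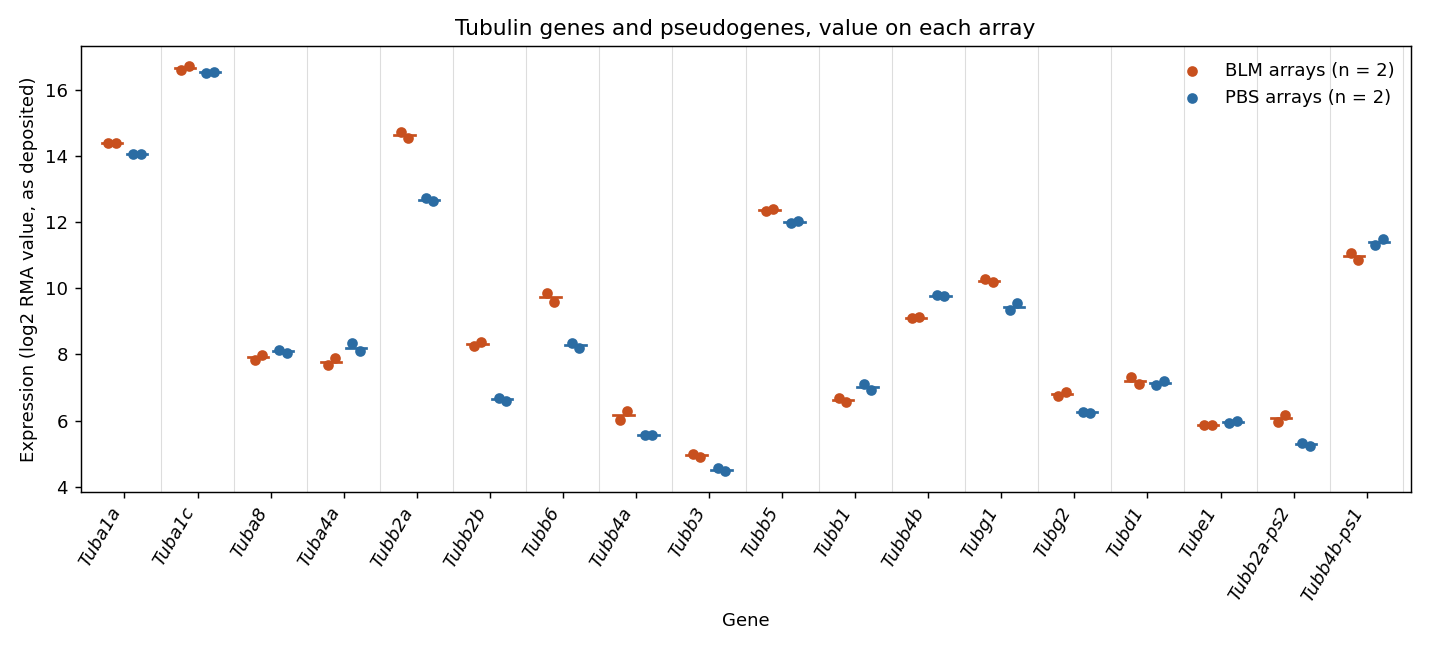
The log2 expression value of each of the 18 tubulin genes and pseudogenes on each array, with BLM arrays in orange left of PBS arrays in blue and a bar at the mean of each group (n = 2). Tubb2a, Tubb2b and Tubb6 show the widest gaps, with BLM means of 14.65, 8.31 and 9.73 against PBS means of 12.67, 6.65 and 8.29, while levels of different genes are not comparable.

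Among the alpha-tubulins that the symbol rule takes in, 1 of 4 measured genes passed (25% called, against 25.3% of all genes). Tubal3, which the rule leaves out, is counted with the axoneme genes below. It stood at -0.03 (adjusted p = 0.894 by limma) and did not pass. Tuba1a, the alpha-tubulin of developing neurons that many tissues also use, lay at 14.39 on both BLM arrays and at 14.07 and 14.06 on the PBS arrays, a rise of 0.33 (SE 0.08, adjusted p = 0.0354). That call ended with cyclic loess, at 0.15 (adjusted p = 0.225), with the replicate number as a block (0.0675) and with any single array left out (0.165 and 0.154 without BLM replicates 1 and 2, 0.0915 and 0.0966 without PBS replicates 1 and 2). Tuba4a lay at 7.68 and 7.89 on the BLM arrays and at 8.34 and 8.09 on the PBS arrays, a difference of -0.43 with an adjusted p of 0.0603 by limma. It passed after the filter on dim genes (0.0278), with a trended robust prior (0.0478) and with median centring (0.0448). Tuba8 stood at -0.18 and did not pass. Tuba1c, at 0.14 (95% interval -0.07 to 0.35), is read from a cluster whose identifier names chromosome 13, whereas RefSeq places the gene on chromosome 15. The other cluster of Tuba1c, with an identifier of chromosome 15, lay at 11.78 and 11.85 on the BLM arrays and 11.42 and 11.61 on the PBS arrays, a difference of 0.30 with an adjusted p of 0.0903 by limma; this choice was made after the values were seen. Alpha-tubulin genes are close copies of each other, so the division of signal among them is uncertain too.

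Both gamma-tubulin genes rose. Tubg1, which nucleates microtubules in most dividing and resting cells, lay at 10.27 and 10.19 on the BLM arrays and at 9.33 and 9.57 on the PBS arrays. The rise was 0.78 (SE 0.11, adjusted p = 0.00676), or 1.72-fold, and it held in each of the 10 alternative fits. Tubg2, the paralog on the same chromosome 11, lay at 6.74 and 6.87 on the BLM arrays, against 6.26 and 6.24 on the PBS arrays (0.56, SE 0.09, adjusted p = 0.00941). That call ended without BLM replicate 2 (adjusted p = 0.06). Tubd1 and Tube1, whose products serve the triplet microtubules of centrioles, stood at 0.07 (95% interval -0.22 to 0.35) and -0.09 (95% interval -0.29 to 0.11), and neither passed. Of 14 measured genes of the gamma-tubulin ring complex and of the severing enzymes, 1 rose, 3 fell and 10 did not pass (28.6% called, against 25.3% of all genes), with a median of -0.03. Tubgcp3, a core ring subunit, fell by 0.89 (SE 0.09), Katnal2, a katanin-like severing enzyme, by 0.66 (SE 0.08) and the centrosome scaffold Akap9 by 0.58 (SE 0.10). Spast, the severing enzyme spastin, rose by 0.57 (SE 0.08). The call of Akap9 ended without BLM replicate 2 (adjusted p = 0.0645).

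The rule also takes in pseudogenes, whose probes may read their parent genes. Tubb2a-ps2 lay at 5.97 and 6.17 on the BLM arrays, against 5.33 and 5.24 on the PBS arrays, and rose by 0.79 (SE 0.10, adjusted p = 0.00531). Tubb4b-ps1 lay at 11.08 and 10.87 on the BLM arrays and at 11.32 and 11.49 on the PBS arrays, and stood at -0.43 (SE 0.11, adjusted p = 0.0479). Each moved in the direction of its parent, Tubb2a and Tubb4b, whose sequence it resembles. Tubb4b-ps1 lost its call with the replicate block (adjusted p = 0.081), without BLM replicates 1 and 2 (0.0728 and 0.204) and without PBS replicates 1 and 2 (0.0638 and 0.151). Kif4-ps, Kif22-ps and Kifc5c-ps, all below the median level, stood between -0.11 and 0.04 and did not pass.

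The motile-cilium kinesins fell, all 3 that were measured, with a median of -0.96. Kif9, a motor of the central apparatus of the axoneme, lay at 6.71 and 6.85 on the BLM arrays and at 7.68 and 8.0 on the PBS arrays, and fell by 1.06 (SE 0.13, adjusted p = 0.00475), a 2.08-fold difference. Kif6, a related kinesin linked to cilia, lay at 6.50 and 6.56 on the BLM arrays, against 7.46 and 7.53 on the PBS arrays. It fell by 0.96 (SE 0.08, adjusted p = 0.00152). Kif19a, which trims microtubules at the tip of motile cilia and so sets their length, lay at 5.71 and 5.75 on the BLM arrays and at 6.26 and 6.19 on the PBS arrays. It fell by 0.49 (SE 0.08, adjusted p = 0.011), and the call ended without BLM replicates 1 and 2 (adjusted p = 0.073 and 0.0576). Kif9 and Kif6 passed in each of the 10 alternative fits, at -1.22 to -0.90 and -1.0 to -0.93 without each array in turn.

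Genes of the axoneme also fell. Of 28 measured genes of the axoneme and of ciliated cells 24 fell, none rose (0 with an unadjusted p under 0.05 by limma) and 4 did not pass, with a median of -0.96. By comparison, 10.1% of all genes fell. The radial spoke genes Rsph4a and Rsph1 stood at -2.44 (SE 0.12) and -2.10 (SE 0.11), the nexin-dynein regulatory gene Drc1 at -2.29 (SE 0.10) and the outer-arm dynein gene Dnah9 at -1.95 (SE 0.09), and all 4 passed in each of the 10 alternative fits. Of the 7 ciliated cell markers, 6 are also in this axoneme list and fell, and Sntn, the 1 outside it, stood at -0.45 (adjusted p = 0.142 by limma) and did not pass. The part of ciliated cell number in the kinesin values was not tested. The enzymes that modify tubulin split: 4 of the 26 measured rose, 10 fell and 12 did not pass, with a median of -0.09. That is 53.8% called, against 25.3% of all genes. Ttll6, which adds glutamate chains to axonemal tubulin, lay at 6.44 and 6.67 on the BLM arrays and at 8.89 and 8.82 on the PBS arrays, and fell by 2.30 (SE 0.11). Agbl2, which removes such chains, fell by 1.36 (SE 0.09), and Ttll3, which adds glycine, by 0.98 (SE 0.10). Ttll12, another member of the tubulin ligase-like family, rose by 1.13 (SE 0.08). All 4 passed in each alternative fit.

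**Figure D3:**
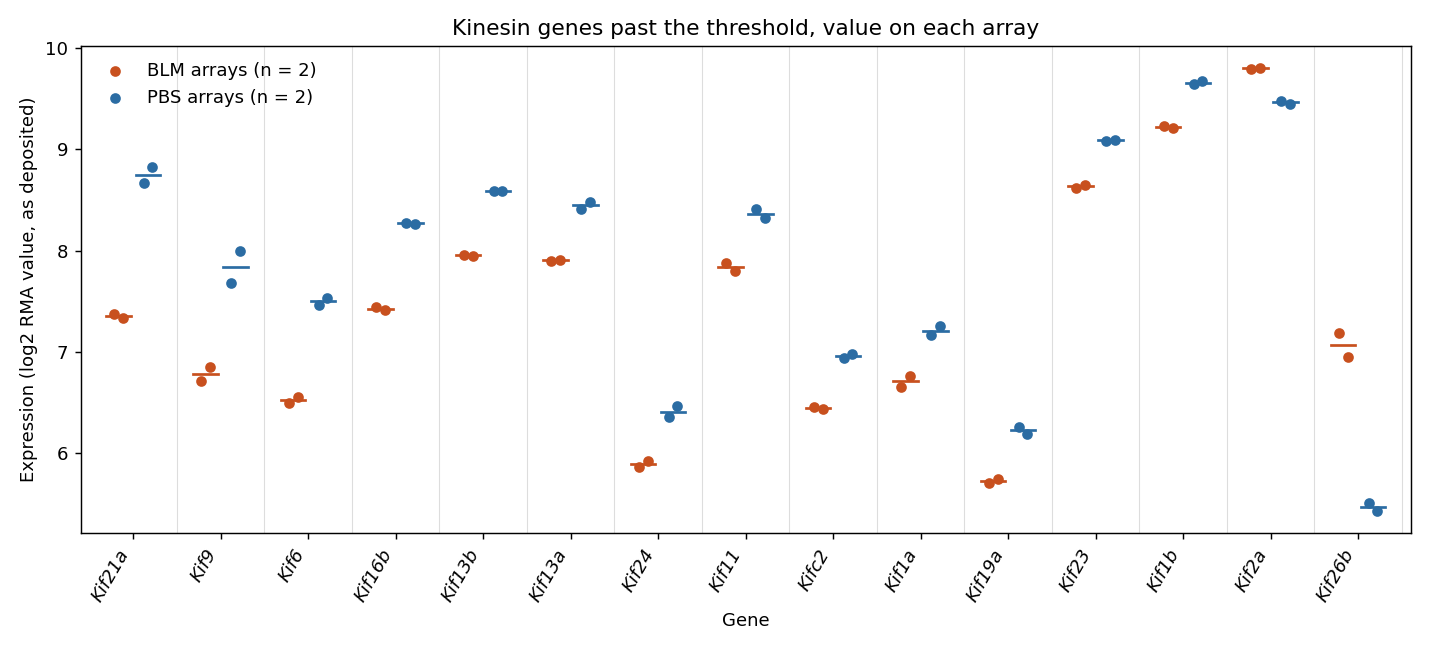
The log2 expression value of the 15 kinesin genes that passed, on each array, ordered by their log2 difference, with BLM arrays in orange left of PBS arrays in blue and a bar at the group mean (n = 2). Kif21a, with a BLM mean of 7.35 against a PBS mean of 8.75, stands at the left end, and Kif26b, with a BLM mean of 7.07 against a PBS mean of 5.47, at the right.

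Of 4 measured kinesins of intraflagellar transport, the primary cilium and centrioles, 1 fell and 3 did not pass. That is 25% called, against 25.3% of all genes. Kif3a and Kif3b, the motor subunits that carry intraflagellar trains, stood at -0.00 (95% interval -0.24 to 0.23) and -0.11 (95% interval -0.36 to 0.13). Kif3a lay at 9.07 and 9.0 on the BLM arrays and at 8.97 and 9.11 on the PBS arrays, so its groups overlapped. Kif7, the ciliary tip kinesin of Hedgehog signalling, stood at 0.01 (95% interval -0.22 to 0.24). Kif24, a centriolar kinesin that limits cilium formation, lay at 5.86 and 5.92 on the BLM arrays, against 6.36 and 6.47 on the PBS arrays, and stood at -0.53 (SE 0.09, adjusted p = 0.0105). That call ended without BLM replicates 1 and 2 (adjusted p = 0.0695 and, just above the threshold, 0.05). Of the 3 train components in the axoneme list, named after their values were seen, Ift88 fell by 0.84 (SE 0.09) and Ift172 by 0.68 (SE 0.08), while Ift74 stood at 0.01 (95% interval -0.21 to 0.23) and did not pass. Kifap3, the accessory subunit of the Kif3 motor, stood at 0.22 (95% interval -0.05 to 0.49) and did not pass.

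Most mitotic kinesins did not pass. Of 13 measured, none rose by limma (1 with an unadjusted p under 0.05), 2 fell and 11 did not pass, or 15.4% called against 25.3% of all genes, with a median of -0.10 and differences from -0.53 to 0.25. This count depends on the grouping. Kif2a, which also works at spindle poles, is placed with the other kinesins below and rose (0.33, adjusted p = 0.0348 by limma). Kif2b, placed there too, stood at 0.04 and did not pass. Cenpe, a kinesin motor of mitosis whose symbol the rule does not take in, is counted with the spindle genes. It stood at 0.28, with an unadjusted p of 0.0378 and an adjusted p of 0.109 by limma, and did not pass. Kif11, the motor that pushes spindle poles apart, lay at 7.88 and 7.80 on the BLM arrays and at 8.41 and 8.32 on the PBS arrays, and fell by 0.53 (SE 0.09, adjusted p = 0.0105). Kif23, which bundles the central spindle for cytokinesis, lay at 8.62 and 8.65 on the BLM arrays, against 9.08 and 9.09 on the PBS arrays (-0.45, SE 0.08, adjusted p = 0.0132). The call of Kif11 ended without BLM replicate 2 (adjusted p = 0.0675) and Kif23 without BLM replicates 1 and 2 (0.085 and 0.0697).

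Nearest to passing were Kif18b, a plus-end motor that shortens astral microtubules, at -0.27 (adjusted p = 0.0871 by limma), and Kif22, the chromokinesin that pushes chromosome arms, at 0.25 (adjusted p = 0.0894 by limma). Both passed after the filter on dim genes (adjusted p = 0.0389). Kif2c, a depolymerase that corrects kinetochore attachments, stood at 0.15 (95% interval -0.08 to 0.37). The chromokinesin Kif4, which lies on the X chromosome, lay at 6.68 and 6.66 on the BLM arrays and at 6.86 and 6.67 on the PBS arrays, or -0.10 (95% interval -0.34 to 0.15). Kif14 and Kif20a, motors of cytokinesis, stood at -0.14 (95% interval -0.35 to 0.06) and -0.13 (95% interval -0.43 to 0.17), and the related Kif20b at -0.12 (95% interval -0.36 to 0.12). Kif15, which works beside Kif11 at the spindle, and Kif18a, which damps chromosome oscillation, both stood at -0.03 (95% intervals -0.25 to 0.19 and -0.36 to 0.30). The minus-end motor genes Kifc1 and Kifc5b stood at -0.02 and 0.02. Kifc1 and Kifc5b are near-identical copies on chromosome 17, so the values of either are uncertain.

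Of the 36 spindle and cytokinesis genes measured beside them, 2 rose, 4 fell and 30 did not pass (16.7% called, against 25.3% of all genes), with a median of 0.05. Prc1, which crosslinks the central spindle that Kif23 and Kif4 also build, stood at -0.53 (SE 0.09). The kinetochore gene Cenpf and the Ndc80 complex gene Spc24 both stood at -0.41 (SE 0.09 and 0.08), and Spc25, of the same complex, at 0.44 (SE 0.08). The call of Prc1 ended without BLM replicates 1 and 2 (adjusted p = 0.0716 and 0.0688), and Spc24 and Cenpf lost theirs with any single array left out (0.0536 to 0.106 and 0.0581 to 0.124). The call of Spc25 ended without BLM replicate 1, BLM replicate 2 or PBS replicate 1 (0.0977, 0.0688 and 0.057). The proliferation markers Mki67, Top2a and Cdk1 stood at -0.21, -0.17 and 0.29, and none passed (adjusted p = 0.236, 0.23 and 0.101 by limma).

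The mitotic kinesins, a group set by role, mostly shared a promoter feature. Of the 12 with a promoter in the table, 11 held TTTGAA, the core of the cell cycle homology region through which DREAM and related complexes time mitotic genes, against 17.9% of all 32851 promoters of this length. Kif18a alone had no match in its window. Among the 7 transport kinesins and the 4 alpha-tubulins with a promoter no match was found. Of the 5 other kinesins, among them Kif2a and Kif2b, only Kif26b held a match. Each of these genes was counted by its first promoter entry. The 17.9% covers every entry, and a gene can have several. A match is a description of letters, not of binding. The region around the match nearest to the start is shown for 8 of them to set the 2 that fell, Kif11 and Kif23, beside 6 that did not pass, with the match in capitals, as TTCAAA where it lies on the opposite strand.
Kif11: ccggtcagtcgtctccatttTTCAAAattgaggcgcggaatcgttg
Kif23: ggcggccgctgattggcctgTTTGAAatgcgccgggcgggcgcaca
Kif22: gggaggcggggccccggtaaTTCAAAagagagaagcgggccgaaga
Kif15: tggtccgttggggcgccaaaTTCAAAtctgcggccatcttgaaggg
Kif4: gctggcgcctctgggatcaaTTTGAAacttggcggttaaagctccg
Kif18b: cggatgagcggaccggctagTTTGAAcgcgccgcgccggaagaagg
Kifc1: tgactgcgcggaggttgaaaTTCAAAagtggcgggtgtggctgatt
Kifc5b: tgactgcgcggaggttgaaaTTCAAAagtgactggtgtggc
These windows lie at chr19:37376343-37376388 (plus strand) for Kif11, chr9:61946772-61946817 (minus) for Kif23, chr7:127042412-127042457 (minus) for Kif22 and chr9:122951042-122951087 (plus) for Kif15. Those of Kif4 and Kif18b lie at chrX:100626064-100626109 (plus) and chr11:102925096-102925141 (minus), and those of Kifc1 and Kifc5b at chr17:33890607-33890652 (minus) and chr17:26917100-26917140 (plus). In Kif11, Kif15 and Kif22 the match begins at -19, -19 and -17 from the start. In Kif23, Kif18b and Kif4 it begins at base 3, 4 and 20 after it, and in Kifc1, Kif20b and Kifc5b at base 2, 8 and 30. The match was farther away in the others: the only matches of Kif2c and Kif14, not shown, begin at -103 and -228. Kifc1 and Kifc5b read alike around the match, as near-identical copies do. The feature is thus present both in the 2 that fell and in 9 that did not pass.

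Transport kinesins fell in 7 of 13 cases, none rose by limma (2 with an unadjusted p under 0.05) and 6 did not pass, with a median of -0.43. The share of all genes that fell was 10.1%. Kif21a, a slow motor that halts microtubule growth at the cell edge, lay at 7.37 and 7.33 on the BLM arrays and at 8.67 and 8.82 on the PBS arrays, the deepest fall of the 59 genes at -1.40 (SE 0.09, adjusted p = 0.000762), or 2.63-fold. Kif16b, which moves early endosomes outward, lay at 7.44 and 7.41 on the BLM arrays, against 8.27 and 8.26 on the PBS arrays (-0.84, SE 0.08, adjusted p = 0.00196). The kinesin-3 motors Kif13b and Kif13a followed. Kif13b lay at 7.96 and 7.95 on the BLM arrays and at 8.59 on both PBS arrays (-0.63, SE 0.08, adjusted p = 0.00446). Kif13a lay at 7.90 and 7.91 on the BLM arrays and at 8.41 and 8.48 on the PBS arrays (-0.54, SE 0.08, adjusted p = 0.00804). Kif21a, Kif16b and Kif13b passed in each of the 10 alternative fits.

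Kif1a, the carrier of synaptic vesicle precursors in neurons, lay at 6.65 and 6.76 on the BLM arrays and at 7.17 and 7.26 on the PBS arrays (-0.51, SE 0.09). Kif1b, which carries mitochondria and vesicles, lay at 9.23 and 9.21 on the BLM arrays, against 9.64 and 9.67 on the PBS arrays (-0.43, SE 0.08). Kifc2, a minus-end kinesin, lay at 6.46 and 6.44 on the BLM arrays and at 6.94 and 6.98 on the PBS arrays (-0.51, SE 0.08). All 3 passed in the limma fit, but lost their calls when single arrays were left out: Kif1a without BLM replicate 1 (adjusted p = 0.0825), Kif1b without BLM replicates 1 and 2 and PBS replicate 2 (0.083, 0.0868 and 0.0538), and Kifc2 without BLM replicates 1 and 2 (0.0579 and 0.0603). The call of Kif13a ended without BLM replicate 1 (0.0553). Of 6 epithelial markers 3 fell on the same arrays, Scgb1a1 at -1.68, Epcam at -0.96 and Cdh1 at -0.69. The others, Nkx2-1 at -0.40, Sftpc at 0.12 and Ager at 0.31, did not pass. The list means were 13.38 and 13.29 on the BLM arrays and 13.87 and 13.90 on the PBS arrays. The part of these markers in the kinesin falls was not tested.

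Conventional kinesin, the main carrier of organelles toward the cell edge, did not pass. Its broadly expressed heavy chain gene Kif5b lay at 12.13 and 12.05 on the BLM arrays and at 11.85 and 11.89 on the PBS arrays, a difference of 0.23 (95% interval 0.01 to 0.44, adjusted p = 0.115). The neuronal heavy chain genes Kif5c and Kif5a stood at 0.29 (95% interval 0.07 to 0.50) and 0.06 (95% interval -0.15 to 0.28), both below the median level. Kif3c, Kifc3 and Kif21b, which complete the transport group, stood at -0.04, -0.09 and 0.14. Of 19 measured kinesin light chains and cargo adaptors, 2 rose, 2 fell and 15 did not pass (21.1% called, against 25.3% of all genes). Fez2, a relative of a kinesin-1 adaptor, rose by 0.84 (SE 0.09). The mitochondrial adaptors parted: Trak2 stood at 0.64 (SE 0.14) and Trak1 at -0.62 (SE 0.09), and the scaffold gene Spag9 stood at -0.43 (SE 0.10). The call of Trak2 ended without BLM replicates 1 and 2 and PBS replicate 1 (adjusted p = 0.115, 0.0536 and 0.0699). Spag9 lost its call with the replicate block (0.0564) and with any single array left out (0.0569 to 0.156).

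Among the 5 other kinesins Kif26b stood apart. Kif26b, a kinesin-11 protein that lacks motor activity and serves cell adhesion and Wnt signalling in the embryonic kidney, lay at 7.19 and 6.95 on the BLM arrays and at 5.51 and 5.43 on the PBS arrays. It rose by 1.60 (SE 0.11, adjusted p = 0.000875), or 3.04-fold, and by 1.48 to 1.72 without each array in turn. On the PBS arrays it was under 6.03, the median gene level, and the size of its difference is not exact. Of 4 fibroblast markers 3 rose, Col1a1 at 4.28, Col3a1 at 3.60 and Pdgfrb at 2.88, and Dcn, at 0.28 (adjusted p = 0.124 by limma), did not pass. The list means of the 4 were 14.10 and 14.02 on the BLM arrays and 11.28 and 11.32 on the PBS arrays; their part in the rises of Kif26b, Tubb2a, Tubb2b and Tubb6 was not tested. Its paralog Kif26a lay at 6.71 and 6.61 on the BLM arrays, against 6.38 and 6.32 on the PBS arrays, and stood at 0.31 (adjusted p = 0.0537 by limma, and 0.0213 after the filter on dim genes). Kif2a, a depolymerase that trims microtubules in neurons and at spindle poles, lay at 9.79 and 9.80 on the BLM arrays and at 9.48 and 9.45 on the PBS arrays (0.33, SE 0.08, adjusted p = 0.0348). Its call ended with any single array left out (0.0821 to 0.159), with the replicate block (0.0664) and with cyclic loess (0.111). Kif2b and Kif12 stood at 0.04 and -0.03, below the median level, and did not pass.

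Genes that fold tubulin rose more often than not. Of 18 measured chaperones, including the CCT ring that folds new tubulin, 11 rose, 1 fell and 6 did not pass. That is 66.7% called, against 25.3% of all genes, with a median of 0.37. The tubulin cofactors Tbca and Tbcb rose by 0.86 (SE 0.17) and 0.79 (SE 0.08), the prefoldin subunit Pfdn4 by 0.83 (SE 0.12) and the CCT subunit Cct2 by 0.76 (SE 0.08). Tbca lay at 13.45 and 12.97 on the BLM arrays and at 12.40 and 12.29 on the PBS arrays, and the call ended without PBS replicates 1 and 2 (adjusted p = 0.0567 and 0.0739). The gene that fell was Tbcel, a cofactor E-like protein that destabilises tubulin, at -0.69. With cyclic loess Tbca, Tbcb, Pfdn4 and Cct2 kept their calls at smaller sizes, 0.68, 0.62, 0.77 and 0.57. The other chaperones, among them Cct7 at 0.34 (adjusted p = 0.0357 by limma), were not followed through the alternative fits. The count and the median of this list therefore hold only for the values as deposited.

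Microtubule-associated and plus-end proteins split, with 5 of 31 rising, 6 falling and 20 not passing (35.5% called, against 25.3% of all genes). Their median was 0.08. Map7d3, a kinesin-1 recruiting protein whose gene lies on the X chromosome, rose by 0.92 (SE 0.08) and Map6, which stabilises microtubules, by 0.87 (SE 0.10). Map7, a relative of Map7d3 abundant in epithelia, fell by 0.77 (SE 0.08) and the plus-end tracker Clip1 by 0.73 (SE 0.08). Map6 lost its call with the mean of its clusters, at 0.41 (adjusted p = 0.0594). Cytoplasmic dynein, the motor that runs against most kinesins, showed 4 rising and 3 falling among 22 genes, with 15 not passing and a median of 0.08 (31.8% called, against 25.3% of all genes). Dctn3, a dynactin subunit, rose by 1.05 (SE 0.09) and the light chain gene Dynlrb1 by 0.64 (SE 0.11). Dynlrb2, the relative of Dynlrb1 found in ciliated cells, lay at 7.58 and 7.66 on the BLM arrays and at 8.75 and 9.0 on the PBS arrays, and fell by 1.25 (SE 0.11). Dynlt3, also on the X chromosome, stood at -0.71 (SE 0.14). The call of Dynlrb1 ended without BLM replicate 1 (adjusted p = 0.0663), and Dynlt3 without BLM replicate 1 and PBS replicate 1 (0.0809 and 0.0705).

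**Figure D4:**
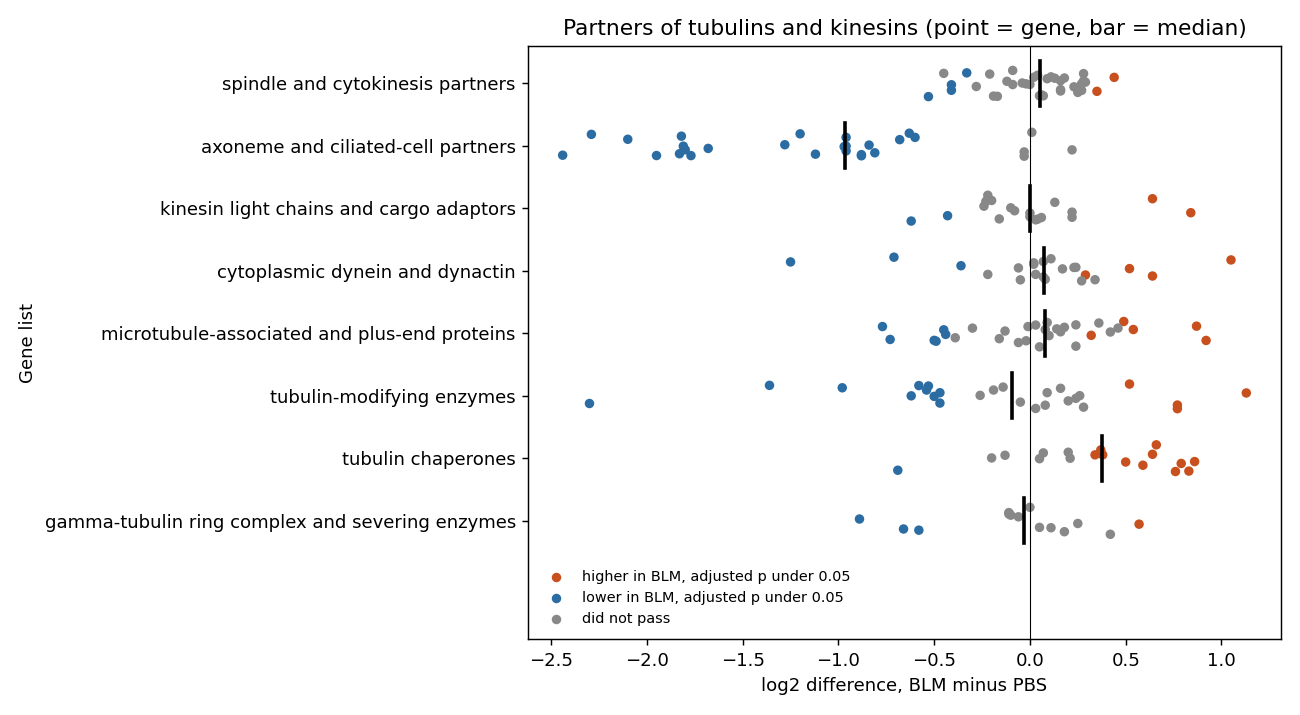
The log2 difference, BLM minus PBS, of each measured gene (point) in 8 lists of tubulin and kinesin partners, with a black bar at each list's median. Axoneme genes lie mostly left of 0 with a median of -0.96, tubulin chaperones mostly right of it with a median of 0.37, and spindle genes around 0 with a median of 0.05.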

How the data were processed

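The deposited log2 values come from Affymetrix arrays of total RNA. Per the submitters' processing notes, the authors used RMA and the Affymetrix Expression Console. Versions, array design and genome build: not given in the sources used here. Deposited arrays do not share 1 distribution: 571 to 617 clusters an array lie above 16, with highest values of 19.56 to 19.91, so the scale is taken as log2 from the notes and what was done beyond RMA is unknown. No detection calls were used. Of 65956 transcript clusters that are no controls, 30604 had 1 symbol, 2146 several and 33206 none in the platform annotation; 827 symbols were updated through RefSeq. The cluster with the highest mean stood for a gene, which gave 30142 genes.

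Computed here: limma 3.58.1 (R 4.3.3, lmFit and eBayes), 2 BLM against 2 PBS arrays, two-sided, Benjamini-Hochberg over all genes, threshold 0.05. The number of arrays limits the precision: the median 95% interval reached 0.244 to either side. Tested on simulated data over 30142 genes, the fit called 0 of 67 changes of 0.5, 25 of 67 of 1 and 54 of 66 of 2 (log2), with 0 false calls. The simulation changed far fewer genes than the 7629 called in the data, which makes the adjusted threshold stricter. These shares therefore do not carry over to the calls given here. Over genes, same-numbered arrays did not deviate together (r = 0.014). Each group gives only a single difference between its arrays, so this cannot decide whether the replicate number pairs arrays. The labels do not say what the number means. Alternatives were the replicate block, leaving out each array, a trended robust prior, keeping the brighter genes only, averaging the clusters of each gene, median centring and cyclic loess.

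The symbol rule that sets the members, the partner lists and the markers were chosen with earlier results of these data known. Every tubulin, every gene that passed and all ciliary and mitotic kinesins are named; from each partner list, up to 4 genes with the largest differences among those that passed. Promoters are RefSeq sequences (GRCm38.p6), scanned for exact motif letters on both strands. Genes without a cluster of 1 symbol were not analysed here, apart from values given at the end.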

Additional observations from a re-analysis of the deposited data

How the results depend on the processing

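Of the 28 called tubulin and kinesin genes, 12 kept their call under each alternative in which they were tested: Tubb2a, Tubb2b, Tubb6, Tubg1, Kif26b and Tubb2a-ps2 higher in BLM, and Tubb4b, Kif6, Kif9, Kif13b, Kif16b and Kif21a lower. No called gene changed direction. Leaving out each array in turn gave 6 to 8 genes higher and 7 to 14 lower, against 12 and 16 with all arrays, and 4003 to 5956 of all genes called, against 7629; a design with fewer arrays makes fewer calls. With the replicate number as a block, 10 genes were higher and 15 lower, and 6742 of all genes were called. The filter on dim genes, which tested 44 of the 59, gave 11 higher and 17 lower, the mean of clusters 12 and 16, the trended robust prior and median centring 12 and 17 each, and cyclic loess 9 and 16.

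Genes that changed sign were all uncalled, and the cause was not tested. With cyclic loess these were Kif22-ps and Tuba1c at -0.03 and Kif2b, Kif4-ps, Kif7 and Kifc5b at -0.01, and with median centring Kif22-ps, Kif7 and Kifc5b at -0.01. Over the fits that leave out 1 array, values ranged from -0.09 to 0.12 for Kif22-ps, -0.08 to 0.11 for Kifc5b, -0.06 to 0.08 for Kif7, -0.05 to 0.18 for Tubd1, -0.04 to 0.12 for Kif4-ps, -0.01 to 0.10 for Kif2b, -0.06 to 0.02 for Kifc1, -0.10 to 0.02 for Kif3c, -0.09 to 0.03 for Kif15, -0.08 to 0.07 for Kif3a, -0.09 to 0.04 for Kif12 and -0.20 to 0.14 for Kif18a. The second Tuba1c cluster, chosen after seeing the data, gave 0.30. With 2 arrays a group, the smallest difference called over all 30142 genes was 0.291; after the filter on dim genes, Kif22 at 0.25 and Kif18b at -0.27 also passed.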

Other observations

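Some tubulin and kinesin genes share their transcript cluster with another gene symbol and so entered no comparison. The cluster of Kif27, a kinesin related to the Hedgehog regulator Kif7 and linked to motile cilia, is shared with the microRNA gene Mir6369 and lay at 6.21 and 6.02 on the BLM arrays and at 7.98 and 7.95 on the PBS arrays, a difference of -1.86. A second cluster, shared with Gm26555, lay at 4.59 on both BLM arrays and at 4.76 and 4.58 on the PBS arrays, a difference of -0.08. The cluster of Tuba1b, a broadly used alpha-tubulin, is shared with Gm5620 and lay at 12.74 on both BLM arrays and at 12.68 and 12.61 on the PBS arrays. The clusters of Kif17 and Kif1c stood at 0.02 and -0.08, and those of Tuba3a with Tuba3b at -0.04 and 0.12. None of these differences was tested.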
